A study of Mus musculus with 2 samples.

Results

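The 10 genes followed here mark the Lgr5-positive stem cells of the intestinal crypt, and were traced from those cells into the endocrine, goblet and enterocyte lineages of 1 mouse crypt cell library. The genes, a list of known markers of these cells, are Lgr5, Olfm4, Ascl2, Slc12a2, Axin2, Smoc2, Rgmb, Gkn3, Cdca7 and Tnfrsf19, and all 10 were found among the 31055 genes of the count table. Cells were taken from small-intestinal crypts of a mouse with the alleles ChgaCreER-tdTomato::Rosa26LSL-eYFP after 5 daily tamoxifen doses of 1 mg. Cre is made from Chga, which encodes chromogranin A of the secretory granules of endocrine cells, so eYFP marks cells that had Chga activity at the time of tamoxifen and the cells that descend from them. Cells sorted for eYFP and a bulk epithelial sort were marked with hashtag antibodies and pooled, which gives 1 gene expression library and 1 hashtag library, with no untreated group and no replicate. The groups compared below are therefore classes of cells within 1 library, and no test was made between them.

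Lineage classes were set by counts of unique transcripts (UMIs): 47 cells with at least 3 Neurog3 UMIs, 366 with at least 20 Chga UMIs, 129 with at least 0.5% of their UMIs from Agr2, Fcgbp and Muc2 (goblet cells) and 134 with at least 2 Alpi UMIs (enterocytes). Of 2335 cells, 630 met at least 1 of these 4 rules and 44 met more than 1. The 1593 cells outside the lineages and not scored as lymphocytes were divided by Lgr5 into 780 with 0 UMIs, 354 with 1 or 2 and 459 with 3 or more. They were also divided into 543 cycling cells, with at least 10 UMIs of Mki67 and Top2a, and 1050 other cells. The 459 cells with at least 3 Lgr5 UMIs (Lgr5 3+ cells) served as the stem cell reference. Because Lgr5 chose them, Lgr5 is left out of every count of genes made against them, which leaves 9.

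Lgr5 is a receptor for R-spondins, which raise Wnt signalling in the cells at the crypt base. Those cells divide and give rise to progenitors that leave the base, and Wnt signalling weakens and BMP signalling strengthens as cells move up the crypt. Progenitors that pass through a Neurog3 stage become hormone- or serotonin-producing enteroendocrine cells, others become mucus-producing goblet cells, and most become absorptive enterocytes. Several of the 10 genes are textbook Wnt targets (Lgr5, Ascl2, Axin2 and Tnfrsf19), whereas Olfm4, which encodes a secreted glycoprotein, is known to need Notch signalling.

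Cells held 1002 to 129719 UMIs, with a median of 19078 and 51238250 in all, and median depth differed between the classes, at 13729 in Neurog3 cells, 12142 in Chga cells, 21042 in goblet cells, 28428 in enterocytes and 23777 in Lgr5 3+ cells. The labels name 1 mouse, but 1744 cells carried Xist without Y-linked transcripts and 252 carried Y-linked transcripts with at most 2 Xist UMIs, so the cells go against the label of a single animal. The classes held their defining genes. Chgb, another granin, reached 48033 CPM (UMIs per 1000000 UMIs of the summed cells) in Chga cells against 122 in Lgr5 3+ cells, Tff3 15342 in goblet cells against 155, and Fabp1 3398 in enterocytes against 17.7. Of 4 stromal genes, Col1a1, Col3a1 and Dcn had no UMI in the Lgr5 3+ cells, and the 4 together were at 0 CPM in the 4 lineages. The 9 Paneth cell genes summed to 25965 CPM in the Lgr5 3+ cells, of which 12 had at least 10% of their UMIs from them. Scrublet, a doublet caller, marked 2 cells by its own threshold, so the 140 cells with the highest scores (6%) were used as an alternative. They made up 23.4% of Neurog3 cells, 22.1% of Chga cells, 5.43% of goblet cells, 6.72% of enterocytes and 2.61% of Lgr5 3+ cells. As a measure of free RNA, 112 lymphocytes, which should lack the markers, held a mean of 1.49 Olfm4 UMIs and 0.196 Slc12a2 UMIs per cell and at most 0.0893 of any of the other 8, at a median of 2674 UMIs. Intervals below are exact 95% intervals (Poisson for sums, Clopper-Pearson for shares) and cover counting error only.

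Along the 3 Lgr5 bins outside the lineages, all of the other 9 markers were highest in the Lgr5 3+ cells and lowest in the cells with no Lgr5 UMI. Olfm4 was at 2147 CPM (2125 to 2170) with 0 Lgr5 UMIs, 5509 (5458 to 5560) with 1 or 2, and 8695 (8645 to 8746) with 3 or more, and the median cell held 13, 120 and 223 Olfm4 UMIs. Slc12a2, the basolateral Na-K-Cl cotransporter NKCC1, was at 463, 894 and 1308 CPM. Ascl2, a transcription factor of the crypt base, was at 33.8, 79.2 and 111 CPM, and Gkn3, a secreted gastrokine, at 35.0, 131 and 234 CPM. The 95% intervals of neighbouring bins did not overlap for any of these 4 genes. In cells with 0 Lgr5 UMIs, 9 of 9 markers were at or below 50% of the Lgr5 3+ level, a size reached by 3.49% of 11059 genes. The range ran from 8.73% for Tnfrsf19 (TROY, a receptor of the tumour necrosis factor family) to 47.2% for Smoc2, a secreted matricellular protein, and 4 of 9 were at or below 25% (0.561% of genes). In cells with 1 or 2 Lgr5 UMIs, 1 of 9 was (0.662% of 10582 genes). This was Tnfrsf19, at 35.8% (27.6 to 45.9%), while the median of the 9 was 67.9% and 0 of 9 were at or below 25% (0.0189% of genes).

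Lgr5 counts near the threshold gave close levels. The 102 cells at exactly 3 Lgr5 UMIs held 7800 CPM of Olfm4 and the 135 cells at exactly 2 held 6761. At the enterocyte threshold, the 24 cells with 2 Alpi UMIs held 547 CPM of Olfm4 and the 105 cells with 1 held 2583. The edges of the Neurog3, Chga and goblet rules rest on 4 to 10 cells each.

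**Figure D1:**
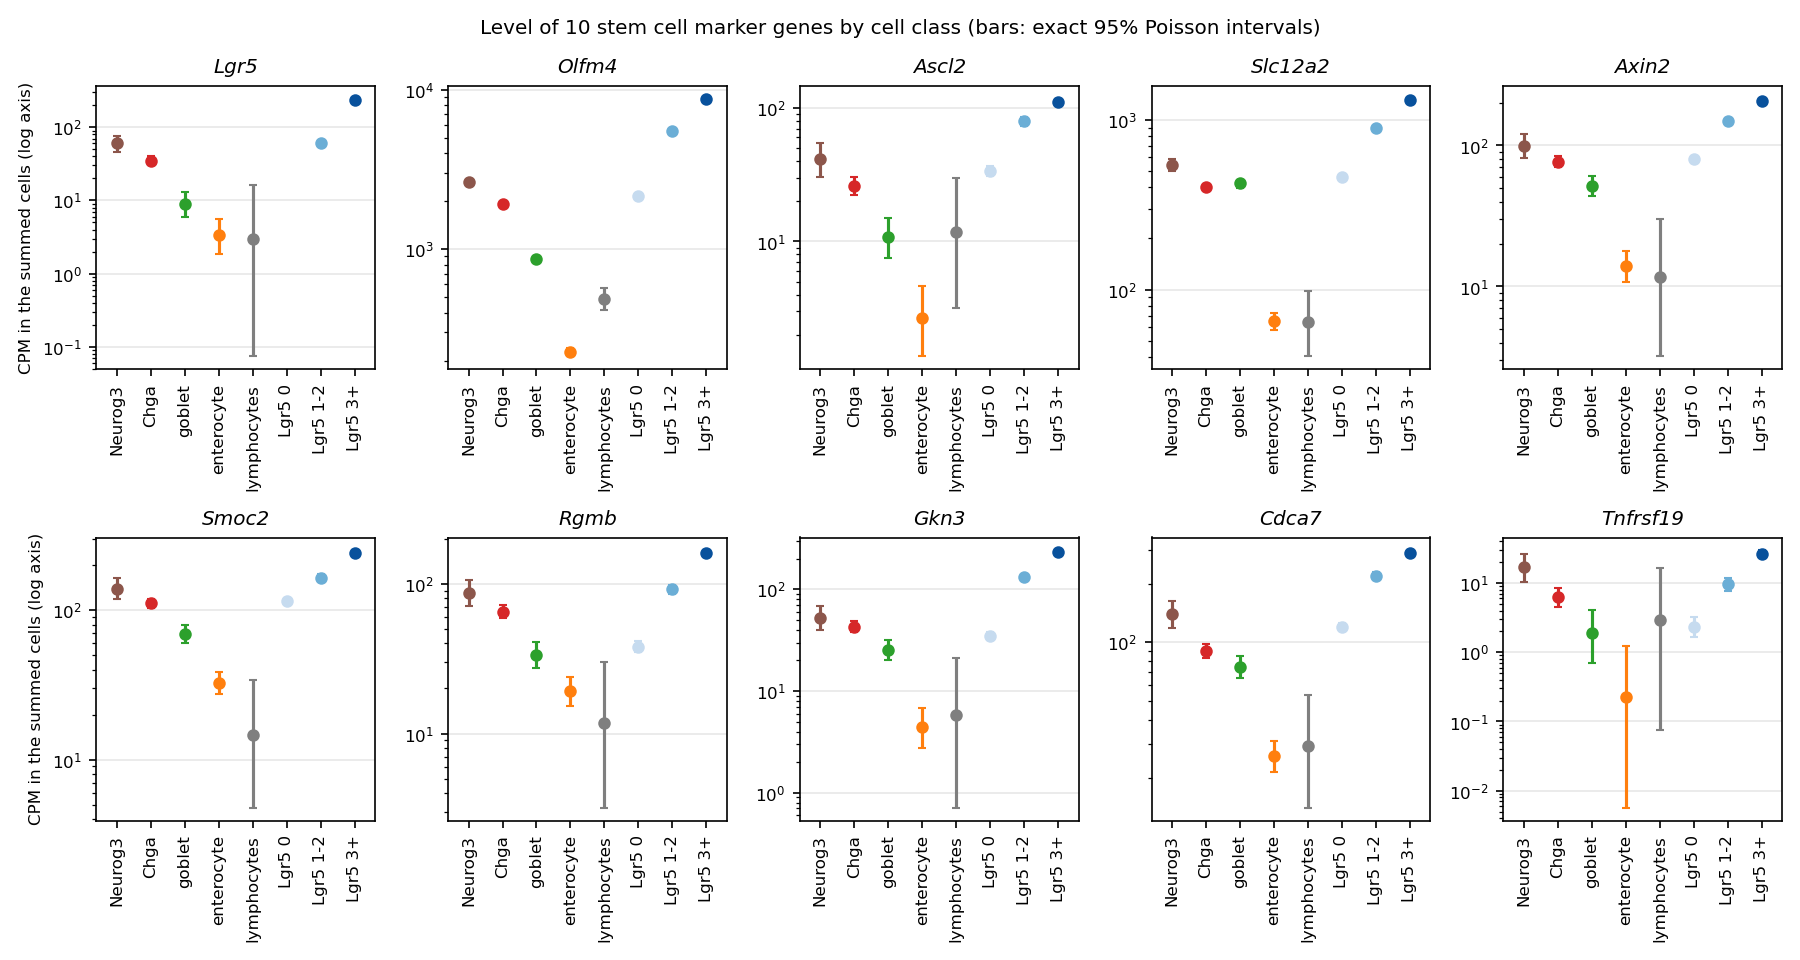
CPM of each marker (log axis, a scale of its own in each panel) in the 4 lineage classes, in lymphocytes and in the 3 Lgr5 bins outside the lineages, with exact 95% Poisson intervals. Each point is the sum over all cells of a class, and Lgr5 has no point in the bin defined by 0 Lgr5 UMIs. In every panel the Lgr5 3+ cells are highest, which for Lgr5 follows from the rule. Enterocytes are the lowest of the 4 lineages in each.

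Across the 4 lineages and the 3 Lgr5 bins, the Lgr5 3+ cells ranked highest for all 9 markers other than Lgr5, which chose them. Enterocytes were the lowest class for 9 of 10 markers. The exception, Lgr5, was lower in the bin defined by its absence. Cells with 1 or 2 Lgr5 UMIs ranked second for 8 genes and Neurog3 cells for Lgr5 and Tnfrsf19. For Lgr5 the bins were set by the gene itself, so their places in its order are not a result. Neurog3 cells ranked above the other lineages throughout, and goblet cells ranked sixth for 8 genes and above Chga cells for Slc12a2 only. Several neighbours in these orders overlapped. Neurog3 cells overlapped the bin with 1 or 2 Lgr5 UMIs for Lgr5, Smoc2, Rgmb and Tnfrsf19, goblet cells overlapped Chga cells for Slc12a2 and Cdca7, and for Tnfrsf19, the gene with fewest UMIs (519 in all), 5 of 6 neighbouring pairs overlapped. For Olfm4 no neighbours overlapped.

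Summed over all cells outside the lineages, cycling cells held 0 of 10 markers at or below 50% of the level of non-cycling cells (3.93% of 11362 genes were), 0 of 10 were at or below 25% (1.36% of genes), and the median of the 10 was 73.8% or 73.9%. Axin2, the feedback inhibitor of Wnt signalling, was at 92.5% (87.5 to 97.7%), Ascl2 at 90.5% (83.8 to 97.8%), Lgr5 at 58.0% (54.1 to 62.1%) and Gkn3 at 51.7% (48.6 to 54.9%). The cycling cells were deeper, with median UMI counts of 31637 in cycling and 16048 in non-cycling cells. Within the Lgr5 3+ bin, 163 cycling cells held 168 CPM of Gkn3 against 294 in 296 non-cycling cells, and 108 CPM of Ascl2 against 113, with overlapping intervals for Ascl2 alone. In that bin 9 of 10 markers, Lgr5 among them, were lower in cycling cells with intervals apart. The same held for 9 of 10, again with Lgr5, in cells with 1 or 2 Lgr5 UMIs, and for 5 of 9 in cells with none. Lgr5 cut these bins, so its place in the counts of 10 cannot be read as a result. No share over all genes was computed for these counts of intervals apart, so they cannot be read as particular to the markers. With 1 or 2 UMIs, the mean was 1.36 Lgr5 UMIs per cycling cell and 1.39 per non-cycling cell. Some within-bin levels were under 50% of those of non-cycling cells. With 1 or 2 Lgr5 UMIs, Gkn3 was at 45.3% (39.7 to 51.7%) and Tnfrsf19 at 34.3% (19.5 to 57.8%), and with no Lgr5 UMI Tnfrsf19 was at 41.9% (19.2 to 86.6%). The bins were cut by UMIs, which depth moves, and the part of depth in these differences was not tested.

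Neurog3 cells, which hold the transcription factor that specifies the endocrine lineage, kept more of the markers than any other lineage when all cells were summed. At or below 50% of the Lgr5 3+ level were 6 of 9 markers (4.67% of 10148 genes), at or below 25% was 1 (1.08%), and the median of the 9 was 48.3% beside 109.5% for all genes. Tnfrsf19 was at 17.0 CPM (10.3 to 26.6) against 26.8 (24.02 to 29.7), or 63.6% (37.9 to 101%), on 19 UMIs. Smoc2 was at 139 CPM against 242 (57.4%), and Rgmb, a co-receptor for bone morphogenetic proteins, at 86.9 against 160 (54.4%). Olfm4 was at 2621 CPM against 8695 (30.1%), Lgr5 at 60.1 against 235 (25.5%) and Gkn3 at 52.9 against 234 (22.6%).

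These sums hid a wide spread between Neurog3 cells. Their Olfm4 counts ran up to 527 UMIs with a median of 4, and 9 of 47 had at least 3 Lgr5 UMIs while 30 had none. In the 30 Neurog3 cells without Lgr5, Olfm4 was at 539 CPM (483 to 601), Gkn3 at 8.20 (2.66 to 19.1) and Smoc2 at 88.5 (66.5 to 116). Without the cells of highest doublet score, 36 Neurog3 cells remained and 9 of 9 markers were at or below 50%, with Olfm4 at 17.4%, Lgr5 at 11.3%, Smoc2 at 45.3% and Rgmb at 46.2%. In the 24 cells that met the Neurog3 rule alone, 3 of 9 were. The share of all genes was not computed for these smaller sets of Neurog3 cells.

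**Figure D2:**
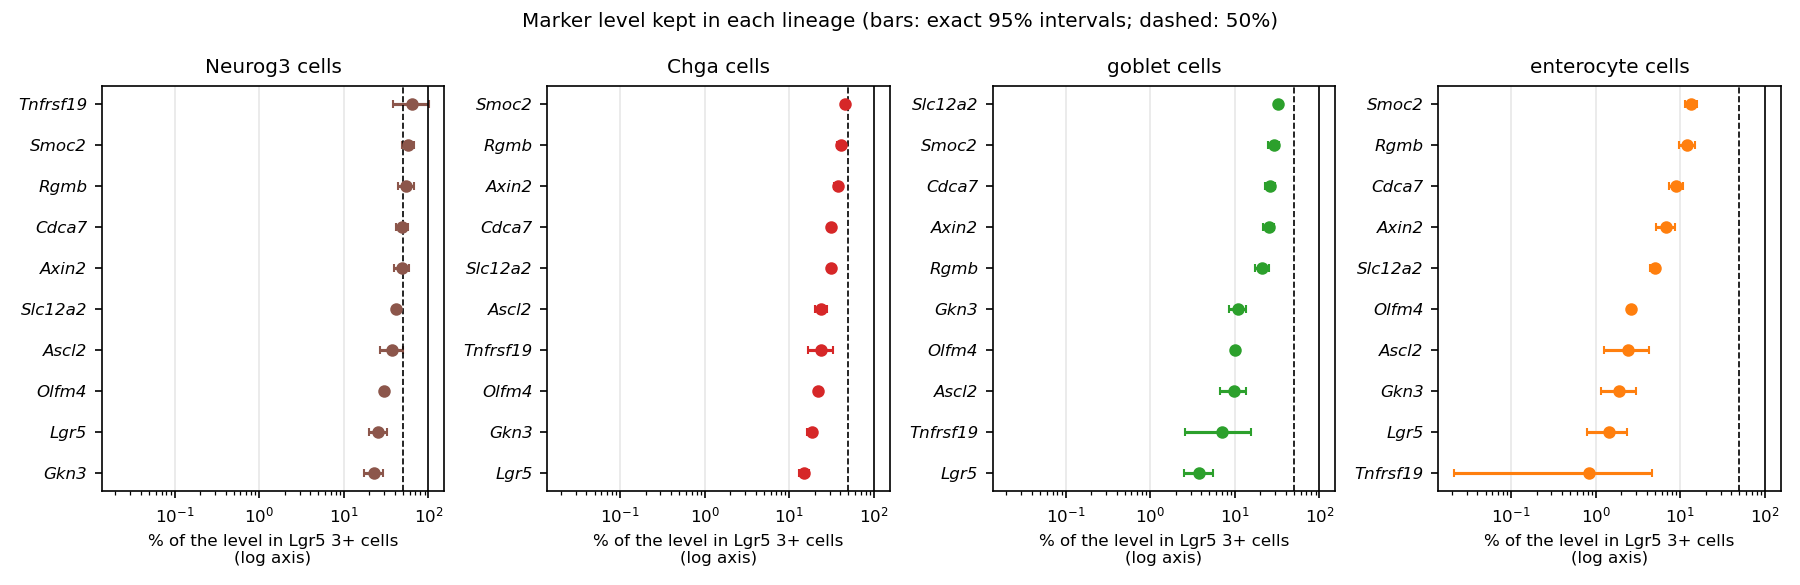
Level of each marker in each lineage as a percentage of its level in the Lgr5 3+ cells (log axis), ordered within each panel, with exact 95% intervals; the solid line is 100% and the dashed line 50%. Smoc2 and Rgmb lie in the upper part of each panel except for Rgmb in goblet cells, where Slc12a2 leads at 32.2%. Lgr5, which chose the Lgr5 3+ cells, lies in the lowest pair of points in each.

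Chga cells held all 9 markers at or below 50% of the Lgr5 3+ level (5.49% of 11074 genes were) and 4 of 9 at or below 25% (0.614% of genes). Smoc2 was highest in relative terms, at 111 CPM (103 to 119) against 242, or 45.8% (42.2 to 49.7%). Rgmb followed at 40.7% and Axin2 at 37.3%. Olfm4 was at 1905 CPM (1871 to 1939) against 8695, or 21.9%, Gkn3 at 18.4% and Lgr5 at 14.9% (13.0 to 17.1%). Much of the Olfm4 and Lgr5 came from few cells. The median Chga cell held 3 Olfm4 UMIs and the highest 491, and 298 of the 366 cells (81.4%) had no Lgr5 UMI. The 28 Chga cells with at least 3 Lgr5 UMIs held a median of 197 Olfm4 UMIs at a median depth of 34268 UMIs, and 22 of them (78.6%) were among the cells of highest doublet score. The 298 without Lgr5 held a median of 2 Olfm4 UMIs at 10832 UMIs, and 13.1% had such scores. Without those scores, Lgr5 in Chga cells was at 5.92% of the stem cell level, Olfm4 at 9.56%, Gkn3 at 6.78%, Cdca7 at 12.1% and Slc12a2 at 13.8%, while Smoc2 was at 36.9%, Rgmb at 36.4% and Axin2 at 24.8%.

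In the Chga cells with most Chga, Smoc2, Rgmb and Axin2 were nearer the stem cell level than the other markers were. Lgr5 is left out of this statement, since it chose the reference cells. The cells were divided into 3 equal groups of 122 by Chga UMIs per 10000 UMIs, a division chosen after seeing the data. Chgb, which was not used for the division, was at 26928, 64021 and 91399 CPM from the low- to the high-Chga group. Olfm4 was at 2857 CPM (2802 to 2912) in the low-Chga group, 1034 (988 to 1081) in the middle and 209 (182 to 238) in the high-Chga group. Slc12a2 was at 599, 230.3 and 50.5 CPM and Cdca7, a cell-division-associated gene, at 139, 44.4 and 8.42. Gkn3 was at 66.8, 20.1 and 2.81 CPM, Ascl2 at 42.3, 7.59 and 3.74, Lgr5 at 48.7, 28.2 and 0.936 and Tnfrsf19 at 9.18, 3.79 and 0.936. These 7 genes were lower in each successive group, although the intervals of the middle and high-Chga groups overlapped for Ascl2 and Tnfrsf19. The other 3 were also lower in each successive group, and fell by less from the low- to the high-Chga group. Their middle and high-Chga intervals overlapped, as did the low-Chga and middle intervals of Smoc2 and Rgmb. Smoc2 was at 123 (112 to 135), 100.2 (86.3 to 116) and 88.0 (71.1 to 108) CPM, Rgmb at 74.0, 56.4 and 49.6, and Axin2 at 100.5, 51.5 and 41.2.

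In the high-Chga group all 9 markers were at or below 50% of the Lgr5 3+ level (21.1% of 10336 genes were) and 7 of 9 at or below 25% (10.3% of genes). The 2 above 25% were Smoc2 at 36.4% (29.3 to 44.7%) and Rgmb at 31.1% (23.2 to 40.8%). Axin2 was at 19.98% (14.5 to 26.9%) and the other 6 between 1.20% and 3.86%. Per cell, Smoc2 gave 0.770 UMIs in the high-Chga group against 0.0446 in lymphocytes, 17.3 times as many (7.14 to 54.4), Rgmb 12.2 times (4.48 to 46.3) and Axin2 10.1 times (3.68 to 38.7). At least 1 Smoc2 UMI was found in 57 of the 122 cells (46.7%), and the 5 cells with most held 21.3% of its UMIs. Slc12a2 gave 2.25 times as many UMIs per cell as lymphocytes (1.35 to 3.89). As CPM, Smoc2 (88.0 against 14.7) and Rgmb (49.6 against 11.7) were above lymphocytes with intervals apart. Axin2 (41.2 against 11.7) and Slc12a2 (50.5 against 64.5) overlapped. Olfm4 gave 1.83 UMIs per cell against 1.49 in lymphocytes, a ratio of 1.23 (0.999 to 1.51), and the intervals of the other 5 also included 1, so at this depth their counts per cell could not be told from those of lymphocytes.

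Depth, doublet score, cell cycle, tags and sex moved with these groups. Median depth was 27068.5, 12538.5 and 7896.5 UMIs from the low- to the high-Chga group, and 54.9%, 11.5% and 0% of the cells were among the highest doublet scores. Cycling cells numbered 42, 5 and 0 of 122, and Neurog3 cells 17, 3 and 0. Cells of tags 1 and 2 numbered 80, 102 and 121, Xist cells 82, 56 and 42, and Y cells 15, 34 and 39. Over all Chga cells, 5 of 10 markers were higher in the 180 Xist cells than in the 88 Y cells with intervals apart, among them Lgr5 at 48.7 and 14.6 CPM (ratio 3.34, 2.03 to 5.88) and Gkn3 at 55.8 and 28.3 CPM (ratio 1.97, 1.36 to 2.95). Smoc2, Rgmb and Axin2 overlapped between the sexes. No share over all genes was computed for this count of 5, so it cannot be read as particular to the markers. The part of cell cycle, tags and sex in the order along the Chga cells was not tested. Without the highest doublet scores the low-Chga group kept 55 cells and the middle group 108. Olfm4 was then at 1934, 547 and 209 CPM and Lgr5 at 30.5, 12.3 and 0.936, still lower in each successive group. Smoc2 was at 92.4, 91.9 and 88.0 CPM, with overlapping intervals in all 3, Rgmb at 80.0, 51.8 and 49.6 and Axin2 at 84.8, 36.2 and 41.2.

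**Figure D3:**
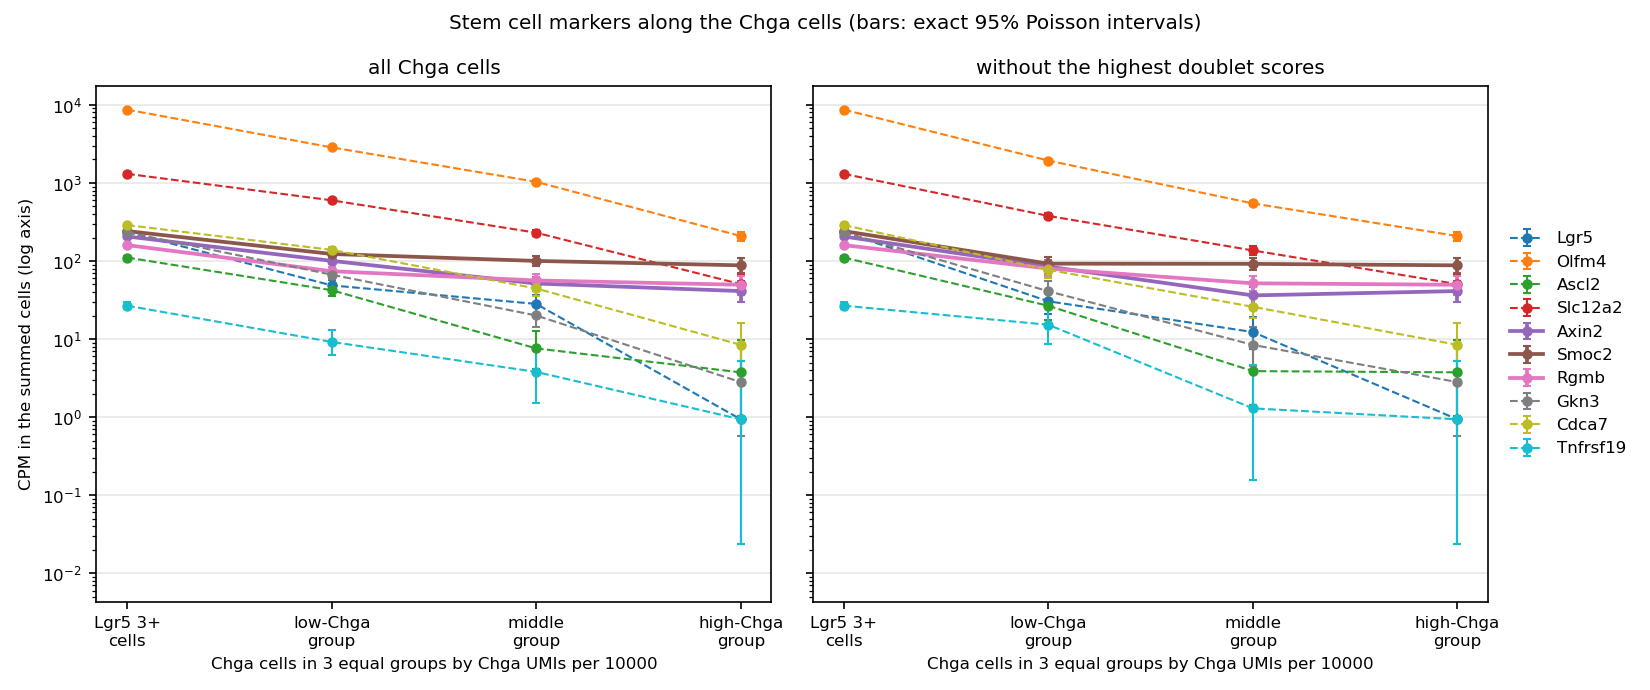
CPM of each marker (log axis) in Lgr5 3+ cells and in Chga cells divided into 3 equal groups by Chga UMIs per 10000, with exact 95% Poisson intervals, for all Chga cells (left) and without the cells of highest doublet score (right). Solid lines mark Smoc2, Rgmb and Axin2, at 41.2 to 88.0 CPM in the high-Chga group, and dashed lines the other genes. The solid genes stand apart by the share of their Lgr5 3+ level, not by CPM. Of the dashed genes, Slc12a2 is at 50.5 and Olfm4 at 209 CPM there.

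RefSeq promoter sequences (mouse build GRCm38.p6) were used for 7 of the 10 genes, with 10 promoters. Any marker entries on a single chromosome were left out. For the contrast described above, those of Rgmb and Axin2, which per cell were above lymphocytes in the high-Chga cells, are set beside 2 others. These are Olfm4 and Gkn3, whose per-cell intervals included the level of lymphocytes. Each line gives the 250 bases before the annotated start, on the strand of the gene. Capitals mark the letters CTTTGA or CTTTGT on either strand, the core of the TCF motif through which Wnt signalling acts.
Rgmb, 1 of 3 annotated promoters (chr17:15831066-15831315, minus strand): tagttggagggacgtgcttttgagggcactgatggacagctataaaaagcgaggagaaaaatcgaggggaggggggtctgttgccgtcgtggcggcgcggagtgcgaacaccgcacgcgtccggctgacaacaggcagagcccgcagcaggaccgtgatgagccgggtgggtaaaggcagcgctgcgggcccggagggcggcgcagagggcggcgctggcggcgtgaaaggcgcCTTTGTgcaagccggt
Axin2 (chr11:108920099-108920348, plus strand): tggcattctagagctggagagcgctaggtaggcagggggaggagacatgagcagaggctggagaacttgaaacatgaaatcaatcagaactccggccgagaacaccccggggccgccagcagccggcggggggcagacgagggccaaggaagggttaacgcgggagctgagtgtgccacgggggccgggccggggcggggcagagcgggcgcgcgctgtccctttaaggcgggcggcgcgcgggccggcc
Olfm4 (chr14:80000052-80000301, plus strand): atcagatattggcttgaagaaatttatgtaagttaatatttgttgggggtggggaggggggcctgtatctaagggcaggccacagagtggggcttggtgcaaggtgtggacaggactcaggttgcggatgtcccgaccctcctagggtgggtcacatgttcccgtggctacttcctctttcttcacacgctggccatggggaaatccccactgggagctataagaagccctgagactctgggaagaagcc
Gkn3 (chr6:87388936-87389185, minus strand): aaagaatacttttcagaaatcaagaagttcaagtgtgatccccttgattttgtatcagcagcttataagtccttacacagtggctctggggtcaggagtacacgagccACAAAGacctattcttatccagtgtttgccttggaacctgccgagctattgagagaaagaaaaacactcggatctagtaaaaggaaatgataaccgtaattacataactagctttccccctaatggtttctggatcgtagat
The letters were found in 1 promoter each of Rgmb, Gkn3 and Tnfrsf19, beginning 16, 142 and 201 bases before the start, and in none of the windows of Axin2, Olfm4, Ascl2 or Cdca7. They occur in 27.6% of 32851 promoters of this length, so 3 of 10 is near the background. TGGGAA, the core of the motif of the Notch effector RBPJ, was found on either strand in the windows of Olfm4 and Cdca7, 2 of 10 promoters, and in 21.6% of all.

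Goblet cells held 9 of 9 markers at or below 50% of the Lgr5 3+ level (7.67% of 10327 genes were) and 5 of 9 at or below 25% (1.68% of genes). Slc12a2 was highest in relative terms, at 422 CPM (399 to 445) against 1308, or 32.2% (30.4 to 34.1%), and was found in 118 of the 129 cells. Smoc2 was at 69.5 CPM against 242 (28.7%), Cdca7 at 74.9 against 289 (26.0%) and Axin2 at 51.7 against 206 (25.1%). Olfm4 was at 869.7 CPM against 8695 (10.0%), Ascl2 at 10.8 against 111 (9.74%) and Lgr5 at 8.89 against 235 (3.78%), with 110 of 129 cells lacking any Lgr5 UMI.

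Slc12a2 and Olfm4 parted along the goblet cells. From cells with 0.5 to 1% of UMIs in Agr2, Fcgbp and Muc2 (21 cells) to those with 1 to 3% (69) and 3% or more (39), Olfm4 was at 1739, 892 and 115 CPM, and Slc12a2 at 591, 434 and 256. The median cell held 6, 4 and 2 Olfm4 UMIs and 10, 7 and 4 Slc12a2 UMIs. The 5 cells with most Olfm4 held 63.5%, 46.4% and 31.1% of its UMIs. In the last bin, 9 of 9 markers were at or below 25% (11% of 10000 genes were; 26.9% at or below 50%). There Slc12a2 stood at 19.6% (17.0 to 22.5%) of the Lgr5 3+ level and Olfm4 at 1.32% (1.06 to 1.62%). Rgmb was at 16.0% (9.73 to 24.7%) and Smoc2 at 11.6% (7.26 to 17.6%). Slc12a2 was found in 37 of these 39 cells with a mean of 5.15 UMIs per cell, 26.2 times that of lymphocytes (16.9 to 42.8), whereas Olfm4 gave 2.31 UMIs per cell, 1.55 times (1.18 to 2.01). Lymphocytes were shallower, at a median of 2674 UMIs against 19671, and held 64.5 CPM of Slc12a2 and 489 of Olfm4. The part of depth in these ratios was not tested. No UMI of Ascl2 or Tnfrsf19 was found in the last bin, which allows up to 3.83 CPM of each by a limit of 3 counts. Cycling cells made up 38.1%, 29.0% and 2.56% of the 3 bins, and cells of highest doublet score 14.3%, 5.80% and 0%.

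Enterocytes held the least of every marker among the lineages. All 9 markers were at or below 25% of the Lgr5 3+ level (5.84% of 10390 genes were; 19.7% at or below 50%), and their median was 4.98%. Smoc2 was at 32.6 CPM against 242, or 13.5% (11.3 to 15.9%), and Rgmb at 19.2 against 160, with an interval of 9.56 to 14.9% of the Lgr5 3+ level. Cdca7 was at 8.96%, Axin2 at 6.82% and Slc12a2 at 4.98%. Olfm4 was at 226 CPM against 8695 (2.60%), Ascl2 at 2.42%, Gkn3 at 1.91% and Lgr5 at 1.42%, and Tnfrsf19 gave 1 UMI in 134 cells.

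Rgmb was nearly level along the enterocytes. From 2 to 4 Alpi UMIs (50 cells) to 5 to 9 (53) and 10 or more (31), it was at 19.8, 19.7 and 17.6 CPM, with overlapping intervals. Smoc2 was at 50.3, 29.2 and 11.4 CPM over the same bins, Slc12a2 at 95.8, 67.9 and 15.8, Cdca7 at 41.3, 22.6 and 7.92 and Olfm4 at 319, 241 and 67.7. Few cells held much of these sums. The 5 cells with most Olfm4 held 78.4%, 73.6% and 32.5% of its UMIs, and the median cell held 2 in each bin. For Slc12a2 the 5 top cells held 61.9%, 67.5% and 61.1%, and for Cdca7 59.4%, 68.4% and 77.8%. In the last bin Rgmb was at 11.02% (6.71 to 17.1%) of the Lgr5 3+ level, the highest of the 9, of which all were at or below 25% (15.3% of 10057 genes were; 31.5% at or below 50%). It was found in 14 of the 31 cells at 0.645 UMIs per cell, 18.1 times the mean of lymphocytes (6.05 to 72.7). Olfm4 was at 0.779% and gave 2.48 UMIs per cell, 1.67 times that of lymphocytes (1.25 to 2.19). Lymphocytes were far shallower, at a median of 2674 UMIs. As CPM, Rgmb overlapped between these cells (17.6, 10.7 to 27.2) and lymphocytes (11.7, 3.19 to 30.0), and Olfm4 was at 489 in lymphocytes. The part of depth in these ratios was not tested. No UMI of Gkn3 or Tnfrsf19 was found there, with a limit of 2.64 CPM. Cycling cells made up 24%, 5.66% and 0% of the bins. Their median depth was 28073, 27095 and 33543 UMIs, and 12%, 5.66% and 0% of the cells had the highest doublet scores.

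**Figure D4:**
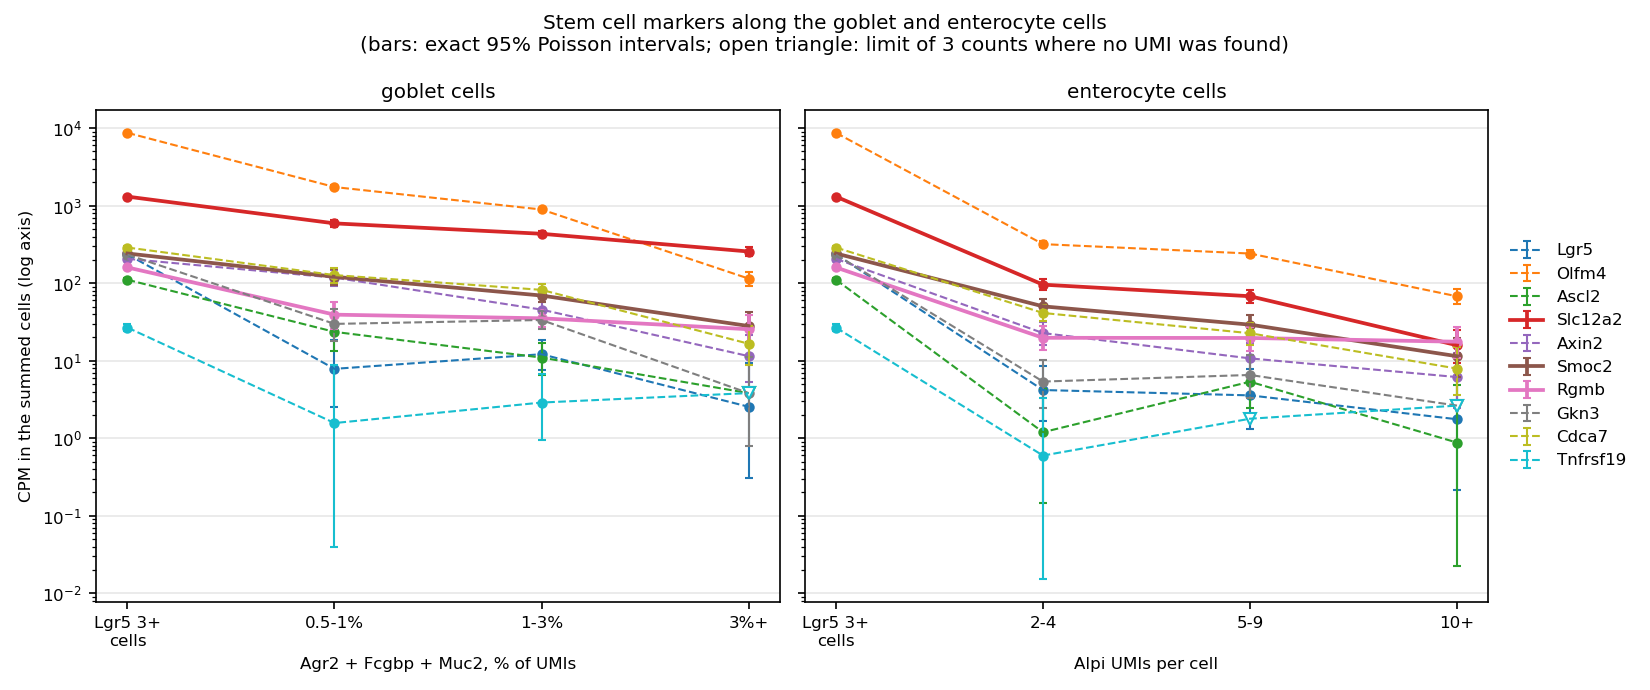
CPM of each marker (log axis) in Lgr5 3+ cells and along the goblet cells (left, by the share of UMIs in Agr2, Fcgbp and Muc2) and the enterocytes (right, by Alpi UMIs), with exact 95% Poisson intervals; open triangles stand at the limit of 3 counts where no UMI was found. Slc12a2 at 256 CPM is the highest marker in the last goblet bin, and Rgmb is level along the enterocytes at 19.8 to 17.6 CPM.

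Within single cells, markers were counted after each cell was thinned to 2000 UMIs, which left out 10 Chga cells, 5 goblet cells, 1 enterocyte, 23 lymphocytes and 2 Lgr5 3+ cells. At least 3 of the 9 markers other than Lgr5 were found in 25.5% of Neurog3 cells (13.9 to 40.4%), 18.5% of Chga cells (14.6 to 23.0%), 14.5% of goblet cells (8.84 to 22.0%) and 1.504% of enterocytes (0.183 to 5.33%), against 87.7% of Lgr5 3+ cells (84.4 to 90.6%). In lymphocytes it was 2.25% (0.273 to 7.88%). The median cell held 1 marker in the first 3 lineages, 0 in enterocytes and 4 in Lgr5 3+ cells. Along the Lgr5 bins, 34.2%, 72.8% and 87.7% of cells had at least 3. Smoc2 was found in 19.9% of thinned Chga cells (15.9 to 24.5%) and 41.6% of Lgr5 3+ cells, beside 3.37% of lymphocytes, or 62.6%, 98.7% and 4.46% without thinning. Olfm4 was found in 18.8% of thinned enterocytes (12.5 to 26.5%) and 99.8% of Lgr5 3+ cells. Its thinned share in lymphocytes, 65.2%, cannot be read as a background for enterocytes, which are far deeper. Without thinning, enterocytes held 7.57 Olfm4 UMIs per cell against 1.49 in lymphocytes, 5.08 times as many (4.31 to 6.02). As CPM, Olfm4 was at 226 in enterocytes and 489 in lymphocytes.

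**Figure D5:**
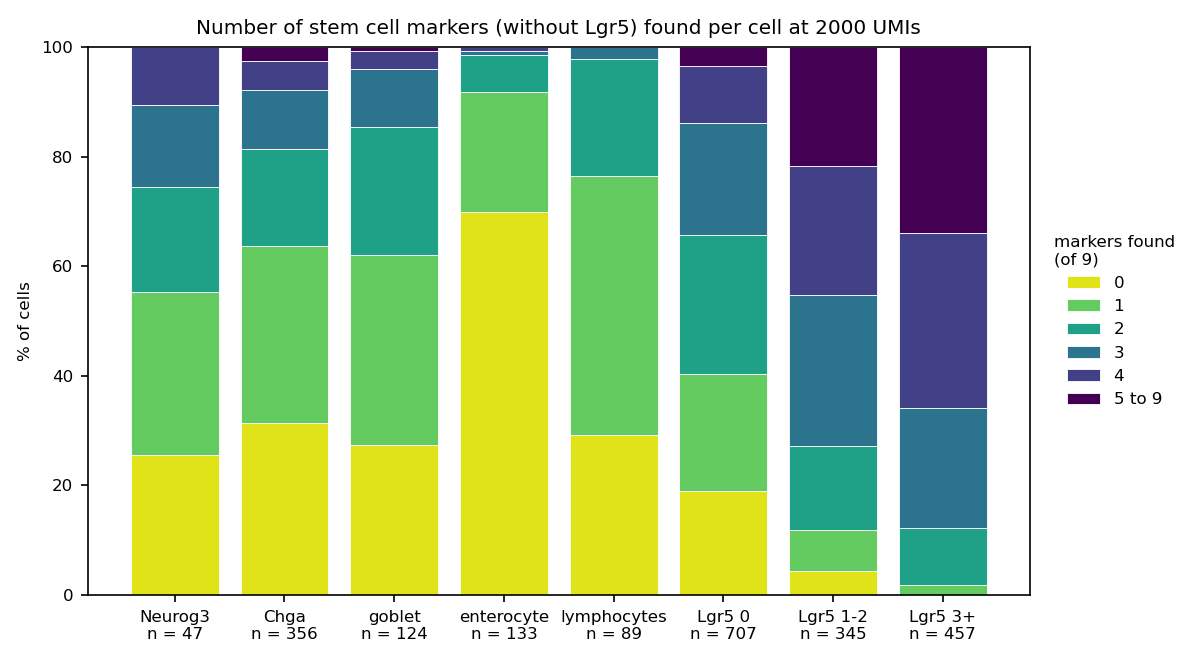
Share of cells (vertical axis, %) by the number of markers found, of 9 without Lgr5, after thinning each cell to 2000 UMIs, for the 4 lineages, lymphocytes and the 3 Lgr5 bins; n is the number of cells with enough UMIs. Cells with no marker make up 69.9% of enterocytes and none of the Lgr5 3+ cells.

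The eYFP reporter allowed stem cells with and without YFP UMIs to be set side by side. A count of 0 does not show that a cell lacked Chga activity, since 68 of the 366 Chga cells also had no YFP UMI. For the counts of markers apart or overlapping by YFP or by sex, no share over all genes was computed. They cannot be read as particular to the markers. Among Lgr5 3+ cells, the 49 with at least 3 YFP UMIs and the 376 with none overlapped in 7 of 10 markers. Olfm4 was at 8696 CPM in cells with YFP and 8657 in cells without (ratio 1.00, 0.985 to 1.02), and Lgr5 at 230.0 and 233 (0.989, 0.877 to 1.11). The other 3 were lower in cells with YFP, namely Slc12a2 (1188 and 1314 CPM, ratio 0.904), Gkn3 (169 and 240 CPM, ratio 0.706, 0.615 to 0.808) and Tnfrsf19 (12.3 and 28.1 CPM, ratio 0.438, 0.252 to 0.714). YFP went with the hashtags: 48 of the 49 cells with YFP had tags 1 and 2, where 78 cells had none, so the comparison was repeated within these tags. There Gkn3 overlapped (ratio 0.933, 0.791 to 1.10), as did Slc12a2 (0.972, 0.914 to 1.03), Olfm4 was higher in cells with YFP (1.05, 1.03 to 1.08) and Tnfrsf19 lower (0.452, 0.248 to 0.782). Among the Xist cells of these tags, 38 and 59, Tnfrsf19 overlapped as well (0.599, 0.313 to 1.09). Of the 10 markers, Gkn3 had the largest ratio between the sexes in the Lgr5 3+ cells, at 243 CPM in 421 Xist cells and 132 in 24 Y cells (ratio 1.84, 1.52 to 2.26). In goblet cells Gkn3 went the other way, at 22.6 CPM in 100 Xist cells and 51.6 in 12 Y cells (ratio 0.437, 0.245 to 0.831). There 2 markers were lower in Xist cells and 8 overlapped. In Chga cells, the 165 with YFP were lower than the 68 without in 7 of 10 markers, with Olfm4 at 1601 and 3015 CPM and Smoc2 at 106 and 139.6 CPM. Their median depths were 17000 and 7328 UMIs, and 20% and 19.1% had the highest doublet scores. The part of depth in this difference was not tested. In Neurog3 cells the 13 with YFP were higher than the 28 without in 4 of 10 markers and lower in 0. Tnfrsf19 was at 37.8 and 10.7 CPM (ratio 3.53, 1.29 to 10.1) and Rgmb at 120.2 and 76.2 CPM (ratio 1.58, 1.005 to 2.45). Median depths of these Neurog3 cells were 18915 and 14411 UMIs, and 23.1% and 21.4% had the highest doublet scores. The part of depth and tags in their difference was not tested. In enterocytes the 14 with YFP were higher than the 112 without in 3 of 9, with Olfm4 at 388 and 187 CPM (ratio 2.08, 1.78 to 2.43) and Smoc2 at 69.8 and 25.2 CPM (ratio 2.77, 1.85 to 4.08), and 28.6% and 1.79% of these enterocytes had the highest doublet scores.

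Of 28 other genes associated with crypt stem cells, 27 had enough UMIs to be counted. At or below 50% of the Lgr5 3+ level were 11 in Neurog3 cells (4.67% of all genes), 13 in Chga cells (5.49%), 19 in goblet cells (7.67%) and 25 in enterocytes (19.7%). Of the 6 with most UMIs, Clca3b, Soat1 and Sox9 were lower than in the Lgr5 3+ cells in all 4 lineages. Clca3b, a calcium-activated chloride channel regulator family member, was at 48.8%, 33.6%, 25.9% and 15.2% of the Lgr5 3+ level in Neurog3 cells, Chga cells, goblet cells and enterocytes, and the cholesterol esterifying enzyme gene Soat1 at 50.4%, 39.3%, 26.8% and 5.65%. Sox9, a transcription factor of the crypt base, was at 69.4%, 64.0%, 50.6% and 16.6%. Hopx, described as a marker of reserve stem cells, was higher in the endocrine lineage than in the Lgr5 3+ cells, at 273 CPM in Neurog3 cells and 389 in Chga cells against 133. Prom1, which encodes a membrane glycoprotein, was at 172% in Neurog3 cells and 61.8% in Chga cells. Id1, a BMP target, was at 53.8%, 123%, 82.4% and 156%.

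Likeness of profile was measured over 10 non-overlapping classes (the 3 Lgr5 bins, cycling and not, and the cells of each lineage that met 1 rule) among 8272 genes with at least 500 UMIs, as Pearson's r with the mean standardised profile of the 10 markers. This is a description of classes that share 1 library and differ in depth. The markers form that mean, and 7 of them were among the 20 highest genes, led by Gkn3 (0.989). Among the 10 other genes most like it were Nr2e3 (0.983), Afap1l1, Pls3, Rnf43 (0.980), Zbtb12, Cdk6 (0.979), Soat1, Fzd7 and Zbtb38 (0.974). Rnf43, a ubiquitin ligase that removes Wnt receptors, was at 114 CPM in the non-cycling Lgr5 3+ cells and 29.1 in the non-cycling cells without Lgr5. Tnfrsf19 and Lgr5 itself followed the mean less closely, with r of 0.906 and 0.866.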

How the data were processed

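The deposited counts are UMI counts per gene and cell, made by the authors with Cell Ranger and Seurat per the submitters' processing notes, which give no versions; the matrix header names software version 3.1.0. The notes name the build GRCh38, while the gene identifiers are mouse Ensembl ones. The cell filter and the match of hashtags to sorts are not given in the sources used here.

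Counts were summed per class and divided by the class total (CPM, per 1000000). A gene entered the share of all genes with at least 50 UMIs in the classes compared. Percentages of the Lgr5 3+ level have exact conditional 95% intervals, a 0 was given a limit of 3 counts, and cells were thinned to 2000 UMIs for shares of cells. Cells were given to tags 1 and 2 or 3 and 4 by a 3-fold rule. There was 1 library, so no test between conditions was made, and intervals cover counting error only.

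All 10 markers were described in every class. Genes of like profile were the 10 others with the highest correlation of log2(CPM + 10), of which 1 is not reported here, and the 6 other stem cell genes were those with most UMIs. The markers, lists and comparisons were chosen with earlier results of these data known. Python 3.11.15, numpy 2.4.6, scipy 1.17.1, pandas 2.3.3, scanpy 1.11.5 and matplotlib 3.10.9 were used. The summing steps were tested on simulated data.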

Additional observations from a re-analysis of the deposited data

Results flagged for a closer look

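The full matrix also held 8913 barcodes that are not among the cells of the count table, and stem cell markers appeared in some of them. Of these barcodes, 937 lay within the limits of depth, genes and mitochondrial share of the kept cells, and 28 of the 937 met the Lgr5 3+ rule outside the lineages. Their Olfm4 level was 10422 CPM (10075 to 10778), against 8695 (8645 to 8746) in the 459 kept Lgr5 3+ cells, Gkn3 312 against 234 and Smoc2 297 against 242 CPM. The intervals overlapped for Smoc2 (241 to 362 and 233 to 250), Ascl2, Axin2, Rgmb and Tnfrsf19. Lgr5, whose UMIs chose both sets, was at 376 against 235 CPM. The median depth of the 28 was 11830 UMIs against 23777 and their median mitochondrial share 6.42% against 7.58%. The part of depth and of the Lgr5 rule in these differences was not tested. No comparison above uses them; the sources used here do not say why they were left out.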

How the results depend on the processing

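Counts are of markers at or below 50% of the reference level. Shares of all genes were not computed under the alternatives, except at 25%, where they are given above. Measured against all cells outside the lineages, the counts were 1 of 9 in Neurog3 cells, 5 in Chga cells, 5 in cells with 0 Lgr5 UMIs and 0 in cells with 1 or 2. With only the cells meeting 1 lineage rule, or only tags 1 and 2, the Neurog3 count was 3. The cycling count of 10 was 2 after thinning to 5000 UMIs, 2 in Xist cells, and 1 without the lineage genes and the 50 top genes in the total. It was 1 without Paneth cells, an alternative chosen after seeing the data, like the 3 equal Chga groups, the YFP comparison within tags and the left-out barcodes. In cells with 1 or 2 Lgr5 UMIs the count was 2 in Y cells and 2 in tags 3 and 4. At or below 25%, the counts were 1 for Neurog3, 4 for Chga, 5 for goblet, 4 for 0 Lgr5 UMIs and 0 for 1 or 2. The cause of these shifts was not tested. In enterocytes, no alternative that gave a value moved the count by over 1.5 times.

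Of 912 single marker percentages under 14 settings, 484 lay inside and 428 outside the interval of the main value. With fewer than 10 cells, Neurog3 cells gave no value in Y cells or tags 3 and 4, Chga cells none in tags 3 and 4, and enterocytes none in Y cells. No paired analysis was possible because there is 1 library and no replicate. Depth limits Tnfrsf19, with 519 UMIs in all, and every marker in the shallow high-Chga cells.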
